A study of Rattus norvegicus with 14 samples.

Results

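Small leucine-rich proteoglycans and versican are matrix proteins of the vessel wall that carry, or descend from proteins that carry, sulfated sugar chains. They were examined here as 8 genes, biglycan (Bgn), decorin (Dcn), asporin (Aspn), lumican (Lum), fibromodulin (Fmod), Prelp, osteoglycin (Ogn) and versican (Vcan), among 14217 genes measured. All probe sets that name exactly 1 of these symbols were taken, 16 of 31042, and where a gene had several, the one of highest mean signal stands for it. The samples were thoracic aortas of Sprague-Dawley rats, with 1 array each: 8 labelled A-CRF, rats in which adenine had caused chronic renal failure, and 6 labelled Control. The sources used here give no dose, duration or age. Nor do they tie each sample to its own animal, so a p-value here reflects how these samples spread, which may be technical spread.

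A small leucine-rich proteoglycan is a curved protein of leucine-rich repeats that binds collagen fibrils and controls how thick they grow. Biglycan and decorin carry chondroitin or dermatan sulfate chains, fibromodulin and lumican carry keratan sulfate, and asporin has an acidic stretch in place of a chain. Several of them also bind growth factors of the TGF-beta family. Versican is a much larger proteoglycan that binds hyaluronan and holds water in the wall between smooth muscle cells.

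None of the 8 genes passed an adjusted p of 0.05 between A-CRF and Control (limma over all probe sets, Benjamini-Hochberg adjustment), and the lowest adjusted p was 0.15, for Bgn. Over all genes 1.93% passed as higher and 1.06% as lower. For 5 members the estimated change was above 0 and for 3 below 0, with a median of 0.028 log2 units against -0.0012 over all genes. Regardless of sign the median change was 0.18 log2 units, with a median SE of 0.10, against 0.035 over all genes, dim ones included. At an unadjusted p of 0.05, 2 of the 8 members passed, Bgn and Prelp, where 18.6% of all genes did. The groups overlapped for each member, as they did for most genes: 1.46% of all genes had every A-CRF array above every Control array and 0.535% had the reverse. The Control means of all 8 exceeded the lowest value in the table by more than 1 log2 unit. Fewer cells of a type and less RNA per cell cannot be told apart in these whole aortas.

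**Figure D1:**
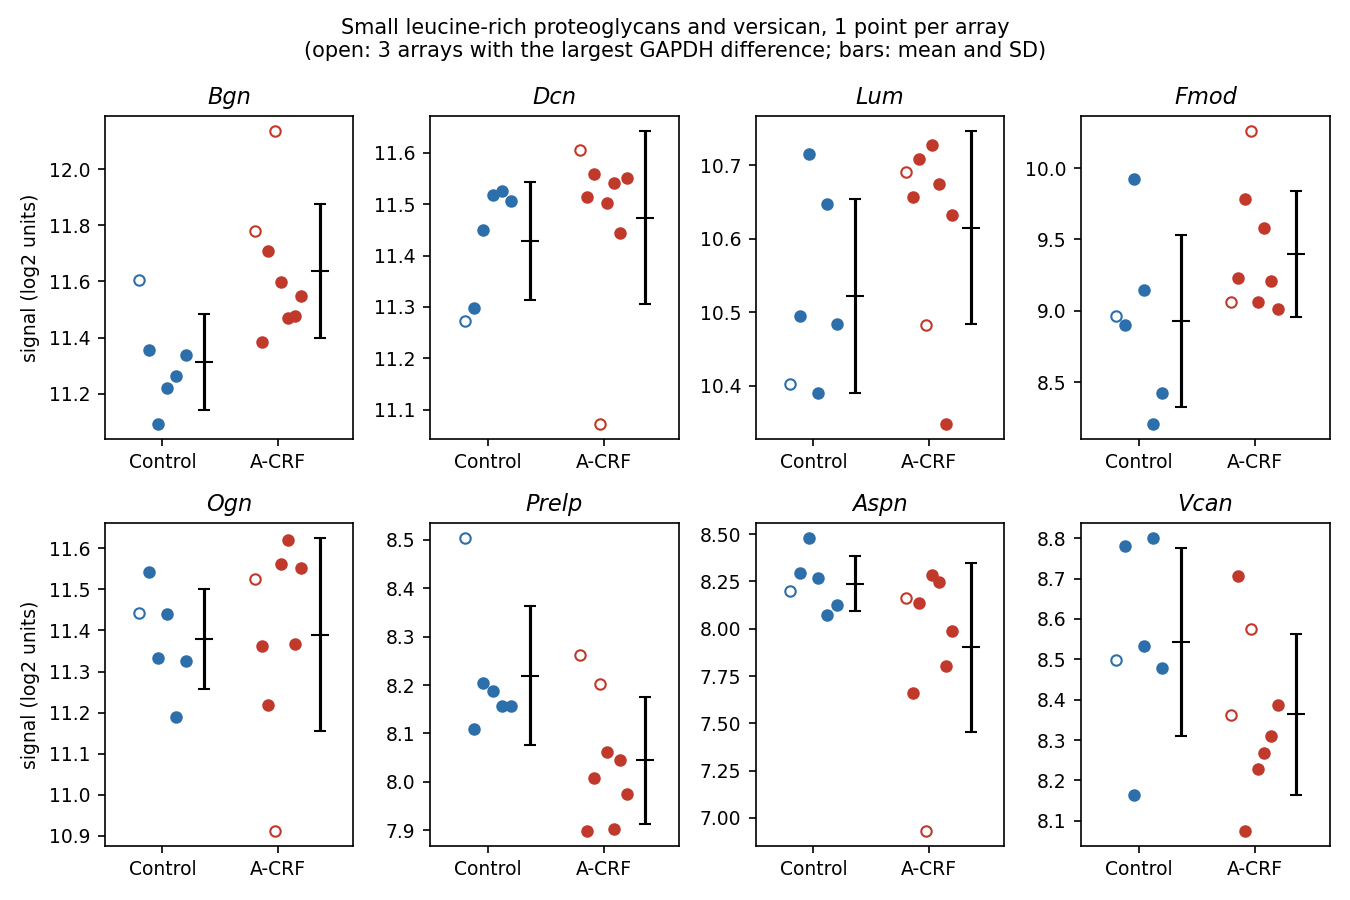
Signal of the 8 members in log2 units (vertical axes, a separate scale for each gene) in Control and A-CRF aortas, 1 point per array, with the mean and SD beside each group. Open points are A-CRF 1, A-CRF 4 and Control 1, and both groups overlap in every panel when all 14 arrays are read.

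A difference between the 3' and the 5' probe sets of GAPDH, which grows as transcripts become shorter, was 1.90 on A-CRF 1, 1.63 on A-CRF 4 and 1.58 on Control 1, against 0.37 to 0.55 on the other 11 arrays. Several members stood apart on these 3 arrays. Results are therefore given for all 14 arrays and for the 11 others (6 A-CRF and 5 Control). The 3 arrays were ranked by the GAPDH difference alone, but leaving them out was chosen with earlier results of these data known. The overlap of the groups came from arrays among these 3, Control 1 for Bgn and A-CRF 1 and A-CRF 4 for Prelp. Separation and calls of these genes on the 11 arrays are therefore no independent support for a change. On the 11 arrays 1 member was called higher, Bgn, and 1 lower, Prelp, where 2.47% of all genes were called higher and 1.44% lower. The same call for each was made on all 14 arrays with the GAPDH difference as a covariate. This covariate mainly sets the same 3 arrays apart from the other 11, so these calls are no independent support either. In that fit 2.81% of all genes were called higher and 1.88% lower. The members that passed were too few for their share to be read against these percentages.

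Bgn, the biglycan gene, ranged from 11.38 through a median of 11.57 to 12.14 log2 units in A-CRF and from 11.09 through 11.30 to 11.61 in Control. All 8 A-CRF arrays lay above the Control median, 3 of them above every Control array, and the highest array of each group, A-CRF 4 and Control 1, belonged to the 3 with a large GAPDH difference. Means were 11.64 ± 0.24 (SD, n = 8) for A-CRF and 11.31 ± 0.17 (SD, n = 6) for Control. The change of 0.32 ± 0.11 log2 units (SE; 95% interval 0.094 to 0.55), or 1.25-fold, did not pass over all probe sets (limma, adjusted p = 0.15).

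Without those 3 arrays the values of Bgn were 11.38 to 11.71 in A-CRF and 11.09 to 11.36 in Control. The lowest A-CRF array was then above the highest Control array, a separation that 3.27% of all genes showed in that direction on the same 11 arrays. The change on them was 0.28 ± 0.061 log2 units (SE; 95% interval 0.14 to 0.41; limma, adjusted p = 0.037), and 0.30 ± 0.067 with the GAPDH covariate (limma, adjusted p = 0.029). Among the 3 arrays left out, A-CRF 1 at 11.78 and A-CRF 4 at 12.14 were above Control 1 at 11.61, too few arrays to count as support.

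Dcn, the decorin gene, encodes a close relative of biglycan. It ranged from 11.07 through 11.53 to 11.61 log2 units in A-CRF and from 11.27 through 11.48 to 11.53 in Control. The lowest value of A-CRF was A-CRF 4, the array where Bgn was highest, and the lowest of Control was Control 1, where Bgn was highest in that group. The change was 0.045 ± 0.075 (SE; 95% interval -0.12 to 0.21; limma, adjusted p = 0.89), so a rise as large as the estimate for Bgn lay outside its interval. Without single arrays it ranged from 0.014 (without Control 1) to 0.10 (without A-CRF 4).

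The per-array difference of Bgn and Dcn was used to ask whether their changes were unequal. It averaged 0.16 ± 0.38 log2 units (SD, n = 8) over the A-CRF arrays and -0.12 ± 0.26 (SD, n = 6) over the Control arrays. The 2 changes differed by 0.28, which did not pass an exact permutation test over the 3003 regroupings of the arrays (two-sided p = 0.14, or 0.21 adjusted over the 2 pairs tested). A-CRF 4 stood at 1.06, whereas the other A-CRF arrays lay between -0.13 and 0.17. Without that array the changes differed by 0.15.

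Aspn, the asporin gene a gene of the same branch of the family, was measured by a pair of probe sets. The brighter one ranged from 6.93 through 8.06 to 8.28 log2 units in A-CRF and from 8.07 through 8.23 to 8.48 in Control. Of the A-CRF arrays 4 were below every Control array, with A-CRF 4 far under the others. The change was -0.34 ± 0.18 (SE; 95% interval -0.72 to 0.044; limma, adjusted p = 0.43), and it was -0.20 without A-CRF 4, -0.17 with array weights and -0.23 on the 11 arrays. The other probe set had a change of -0.37 ± 0.17 (SE; limma, adjusted p = 0.34).

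**Figure D2:**
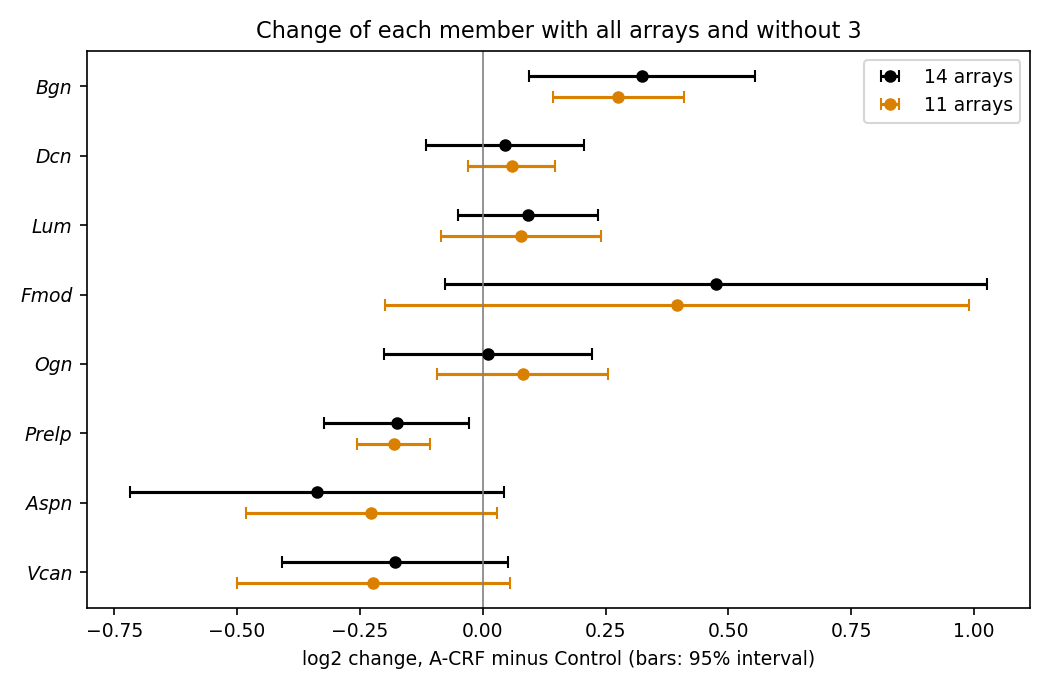
Log2 change of each member, A-CRF minus Control (horizontal axis), with its 95% interval from limma, for all 14 arrays in black and for the 11 arrays without A-CRF 1, A-CRF 4 and Control 1 in orange. The intervals of Bgn and Prelp narrow on 11 arrays, where they run from 0.14 to 0.41 for Bgn and from -0.25 to -0.11 for Prelp, while those of the other 6 members include 0 in both.

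Among the relatives of lumican and fibromodulin, Prelp, a protein that ties basement membranes to the underlying collagen, ranged from 7.90 through 8.03 to 8.26 log2 units in A-CRF and from 8.11 through 8.17 to 8.50 in Control. Of the 8 A-CRF arrays 6 were below every Control array, and the other 2 were A-CRF 1 at 8.26 and A-CRF 4 at 8.20. The highest Control array was Control 1 at 8.50, with the next at 8.20. The change was -0.18 ± 0.069 (SE; 95% interval -0.32 to -0.028; limma, adjusted p = 0.23).

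On the 11 arrays Prelp lay between 7.90 and 8.06 in A-CRF and between 8.11 and 8.20 in Control, with no overlap, a separation in this direction that 1.7% of all genes showed there. Means there were 7.98 ± 0.070 (SD, n = 6) for A-CRF and 8.16 ± 0.036 (SD, n = 5) for Control. The change of -0.18 ± 0.034 (SE) passed (limma, adjusted p = 0.021), and that of -0.19 ± 0.032 with the GAPDH covariate passed too (limma, adjusted p = 0.0089). In linear terms the level was 1.13-fold lower in A-CRF on the 11 arrays. The smooth muscle marker list, 9 of 9 genes measured, was also highest on Control 1, at 10.14, and ranged from 9.33 to 9.75 in A-CRF and from 9.56 to 10.14 in Control, with 1 of its genes, Myh11, called lower. Its part in the change of Prelp was not tested.

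Fmod, the fibromodulin gene, had the largest SD of the 8 in Control (0.60, n = 6), and in A-CRF its SD (0.44, n = 8) was close to that of Aspn (0.45). It ranged from 9.01 through 9.22 to 10.26 log2 units in A-CRF and from 8.21 through 8.93 to 9.92 in Control. All 8 A-CRF arrays were above the Control median, but Control 3 at 9.92 was above all A-CRF arrays except A-CRF 4. The change of 0.47 ± 0.26 (SE; 95% interval -0.078 to 1.03; limma, adjusted p = 0.45) was the largest estimate among the members, and leaving out 1 array at a time moved it between 0.33 (without Control 5) and 0.67 (without Control 3). Control 3 was likewise the Control array with the highest mean of the 3 measured tendon markers (6.48, the next being 6.02) and with the highest Comp, a cartilage matrix protein (7.01, against 5.83 to 6.07 on the other Control arrays and 6.40 to 8.11 in A-CRF). Only 1 of these 3 tendon markers exceeded the lowest value by more than 1 log2 unit in the Control mean. Of the 8 measured chondrocyte markers only 2, Comp and Col11a2, exceeded the lowest value by that margin in the Control mean. Acan and Col2a1, which define cartilage, did not (5.61 and 5.37). Comp was picked from this list after its values were seen. The mean of the 8, Comp included, was 5.61 on Control 3 and 5.56 on the next Control array. The part of such tissue in the Fmod values was not tested.

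Lum, the lumican gene and the nearest relative of Fmod, varied far less. Its values ran from 10.35 through 10.67 to 10.73 log2 units in A-CRF and from 10.39 through 10.49 to 10.71 in Control. The groups covered nearly the same range, with 6 of 8 A-CRF arrays above the Control median. The change was 0.093 ± 0.067 (SE; 95% interval -0.050 to 0.24; limma, adjusted p = 0.61). The changes of Fmod and Lum differed by 0.38, which did not pass the exact permutation test (two-sided p = 0.21, adjusted 0.21 over the 2 pairs).

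Ogn, the osteoglycin gene, a keratan sulfate protein also called mimecan, had the smallest change, 0.011 ± 0.098 log2 units (SE; 95% interval -0.20 to 0.22; limma, adjusted p = 0.99). It ranged from 10.91 through 11.45 to 11.62 in A-CRF and from 11.19 through 11.39 to 11.54 in Control. The A-CRF arrays lay on both sides of the Control range, 3 above it and A-CRF 4 alone below it. The other 3 probe sets of Ogn had changes of -0.028, 0.045 and -0.00046.

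Vcan was measured by 5 probe sets, and the estimated change was below 0 for each, from -0.18 to -0.062, with none past the threshold. The brightest ranged from 8.07 through 8.34 to 8.71 log2 units in A-CRF and from 8.16 through 8.52 to 8.80 in Control. Of the A-CRF arrays 2 were above the Control median, and Control 3 had the lowest Control value. The change was -0.18 ± 0.11 (SE; 95% interval -0.41 to 0.051; limma, adjusted p = 0.51), and it was -0.11 with the mean of the 5 probe sets. Probe sets of 1 gene were read from the same RNA, so the shared sign is no replication, and the annotation does not tell which splice forms of versican each one detects.

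**Figure D3:**
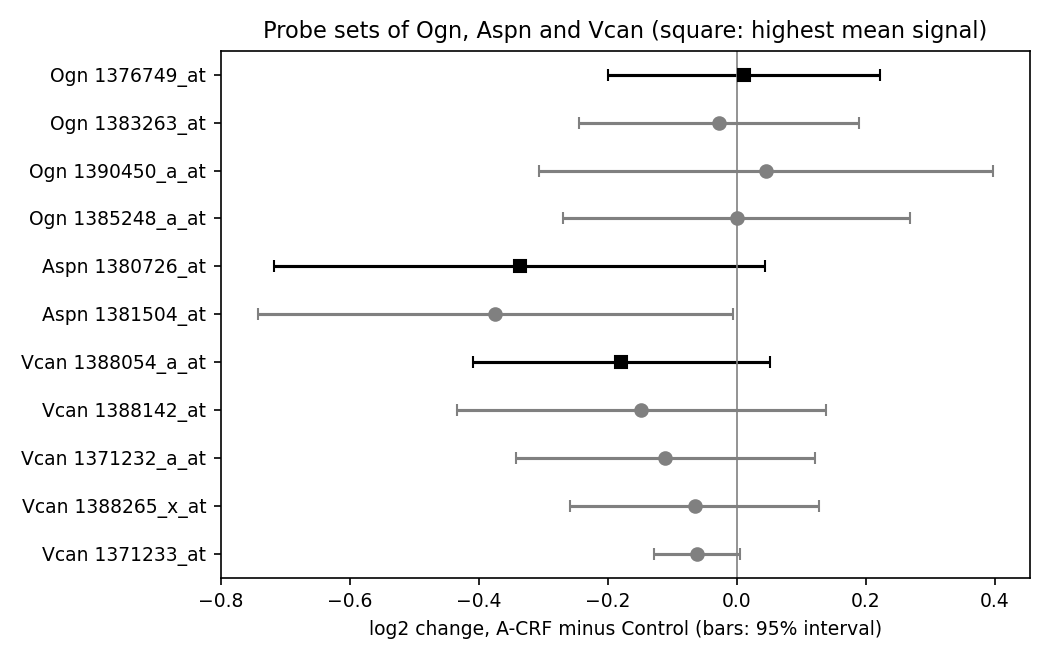
Log2 change, A-CRF minus Control, with its 95% interval from limma (horizontal axis), for each probe set of Ogn, Aspn and Vcan on 14 arrays. Squares are the probe sets that represent the gene, and the 5 of Vcan and the 2 of Aspn lie below 0, whereas the 4 of Ogn lie between -0.028 and 0.045.

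Most of these genes sit in clusters on the rat genome. In the RefSeq gene order of assembly GRCr8, Dcn and Lum adjoin on chromosome 7 with Kera and Epyc next to them, Prelp lies between Optc and Fmod on chromosome 13, and Omd lies between Ogn and Aspn on chromosome 17. Vcan on chromosome 2 adjoins Hapln1, which encodes a link protein for hyaluronan, and Bgn is on the X chromosome. On chromosome 7 the changes were 0.045 for Dcn and 0.093 for Lum. On chromosome 13 they were -0.18 for Prelp, -0.0031 for Optc (an eye protein, with a Control mean of 5.70) and 0.47 for Fmod.

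On chromosome 17 Omd, the gene of osteomodulin (a keratan sulfate protein of bone matrix), had by far the largest estimated change of the family, between Ogn at 0.011 and Aspn at -0.34. Omd ranged from 8.21 through 9.23 to 10.15 log2 units in A-CRF and from 9.93 through 10.25 to 10.62 in Control. Of the 8 A-CRF arrays 6 were below every Control array, and A-CRF 6 and A-CRF 7 lay inside the Control range. The change of -0.98 ± 0.27 (SE; 95% interval -1.55 to -0.40) did not pass (limma, adjusted p = 0.079), nor did that of -0.81 on the 11 arrays (limma, adjusted p = 0.12). It passed without A-CRF 6, without A-CRF 7 and with array weights (limma, adjusted p = 0.042, 0.0497 and 0.047).

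The 250 bases before the annotated start of Ogn and of Aspn are shown because these genes, on the same strand with Omd between them, had the highest correlation between members. The RefSeq table used here (GRCr8) was matched for 5 of the 8 members, and the sequences read 5′ to 3′ on the gene's minus strand. Capitals mark TATAAA on either strand.
Ogn, chr17:15258996-15259245: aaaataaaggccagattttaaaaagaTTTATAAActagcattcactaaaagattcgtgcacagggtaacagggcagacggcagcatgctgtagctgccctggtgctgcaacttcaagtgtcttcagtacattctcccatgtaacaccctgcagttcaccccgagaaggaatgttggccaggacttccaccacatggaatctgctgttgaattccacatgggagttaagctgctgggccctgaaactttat
Aspn, chr17:15310470-15310719: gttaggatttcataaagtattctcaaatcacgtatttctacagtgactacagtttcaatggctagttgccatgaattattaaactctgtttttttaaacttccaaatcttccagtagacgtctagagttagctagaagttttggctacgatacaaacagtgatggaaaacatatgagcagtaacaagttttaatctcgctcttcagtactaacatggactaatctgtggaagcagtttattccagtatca
The search covered TATAAA on both strands with overlaps counted. It also covered TGANTCA, the letters of an AP-1 motif. The others were CAGACA, a SMAD-type box, and the CArG box. Only TATAAA was matched, and only in Ogn, by 2 overlapping copies on opposite strands that begin 224 and 222 bases before the start. Among all 33469 windows of this length 12.9% held TATAAA, 6.34% TGANTCA, 17.2% CAGACA and 1.5% a CArG box. A match is a run of letters and not a shown binding site.

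Within groups the members did not vary as 1 block. After each array's deviation from its group mean was taken, 10 of the 28 pairs of members had a Pearson correlation above 0 over the 14 arrays, and 16 of 28 kept their sign on the 11 arrays. Ogn and Aspn had the highest value over the 14 arrays (r = 0.79, Spearman rho = 0.69). It was 0.39 without A-CRF 4 and A-CRF 6, the arrays farthest from the median of Ogn, and 0.44 on the 11 arrays. On those 11 arrays Fmod and Aspn (r = 0.55) and Lum and Aspn (r = 0.45) were higher. Bgn and Dcn had the lowest value over the 14 arrays (r = -0.70, rho = -0.13). This rested on A-CRF 4 and Control 1, without which r was 0.16. Aspn and Vcan deviated in opposite directions (r = -0.60, rho = -0.63), with -0.65 without A-CRF 4 and A-CRF 5 and -0.70 on the 11 arrays. These values describe arrays that also share their RNA quality, and no p is attached to them since the pairs were picked by size.

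**Figure D4:**
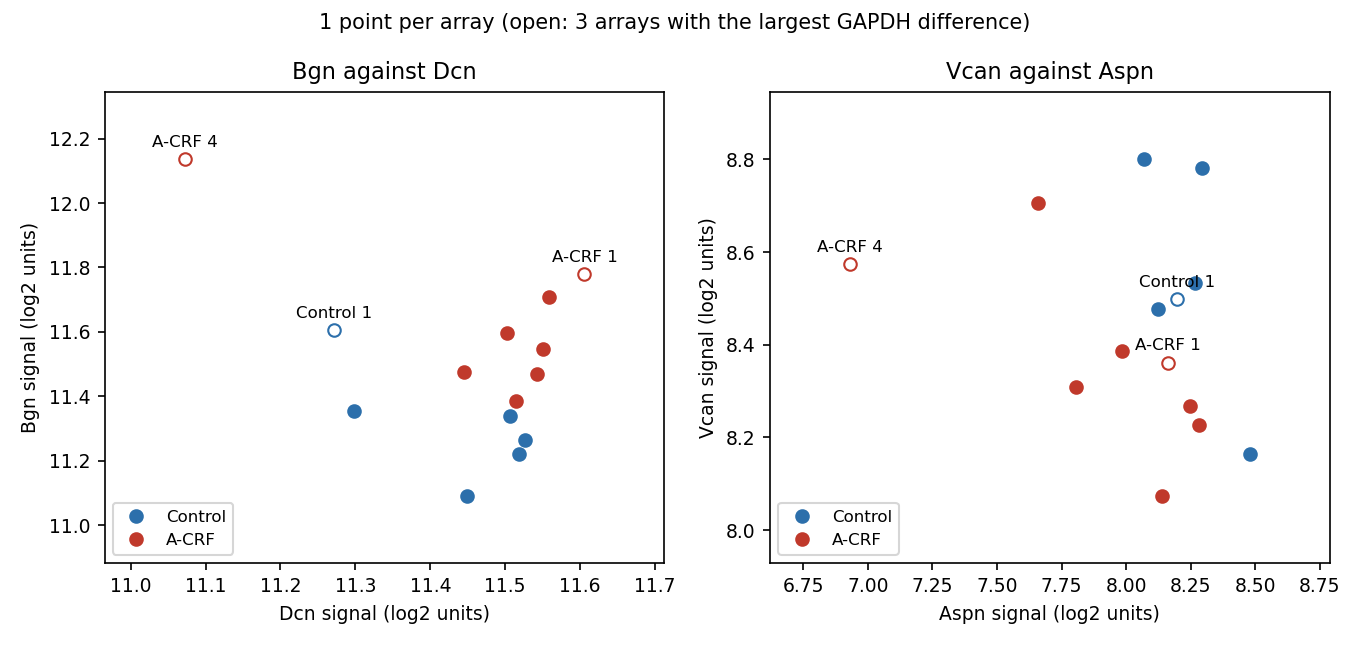
Signal of Bgn against Dcn (left) and of Vcan against Aspn (right) in log2 units, 1 point per array, Control in blue and A-CRF in red, with the 3 arrays of large GAPDH difference open and named. A-CRF 4 and Control 1 combine the lowest Dcn with the highest Bgn of their group, and on the 11 filled arrays each red point is above each blue one in Bgn.

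Over 9309 candidate genes, those whose deviations were most like the mean deviation of the 8 members were Rab21 (r = 0.85 over 14 arrays, 0.78 without A-CRF 1 and A-CRF 7), Ccnjl (0.79, then 0.37), Abhd5 (0.78, then 0.65), Ttll3 (0.74, then 0.26) and Kazn (0.74, then 0.41). For single members the most alike were Tspan9 for Bgn (r = 0.96, and 0.93 without A-CRF 4 and Control 1), Nup153 for Ogn (0.94, then 0.89), Rab7a for Prelp (0.94, then 0.82), Sv2b for Dcn (0.90, then 0.41) and Smc5 for Aspn (0.88, then 0.46). They were Clip1 for Lum (0.87, then 0.85), Angpt4 for Fmod (0.85, then 0.76) and Ndst1 for Vcan (0.85, then 0.77), the second value being without the 2 arrays farthest from the median of that member. These are the highest of many values over few arrays and are given as a description.

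Related genes were read from 7 lists, and of 99 measured genes 9 were called higher and 0 lower (9.09% higher, against 1.93% of all genes). The lists were written with earlier results of these data known, so these shares are a description and no test of the lists. Without single arrays the count higher lay between 3 and 12, and it was 3 to 5 without A-CRF 5 or any 1 of Control 2 to 6, fits in which 0.985% to 1.29% of all genes were called higher. The calls of Gpc3 and Tlr2 held in all 14 such fits, whereas that of Agrn ended in 11, of Mmp14 in 10, of Gpc4 in 8, of Htra1 in 5, of Col5a2 in 4, of Bmp4 in 3 and of Mmp2 in 2 (highest adjusted p = 0.11, for Mmp14). These fits were added after the data were seen. Of 7 other leucine-rich repeat proteins of the matrix none passed, with Podn at 0.35 ± 0.17 log2 units (SE; limma, adjusted p = 0.37) after Omd. Of 19 other proteoglycans 3 rose, the cell surface glypicans Gpc3 by 0.35 ± 0.062 (SE; limma, adjusted p = 0.014) and Gpc4 by 0.29 ± 0.065 (limma, adjusted p = 0.036) and the basement membrane protein Agrn by 0.26 ± 0.058 (limma, adjusted p = 0.036). The median of that list was 0.089. With the mean of its probe sets Gpc3 was at 0.18 (limma, adjusted p = 0.011). Its representative probe set showed no overlap, 8.43 to 8.65 in A-CRF and 7.86 to 8.31 in Control. The same held for Agrn, Mmp2, Bmp4, Tlr2 and Col5a2 but not for Gpc4, Mmp14 and Htra1. Over all genes 1.46% were separated in this direction. The 9 genes were picked by their calls on the same arrays, so their separation is no further support.

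None of 25 genes that build or sulfate glycosaminoglycan chains passed, with a median of 0.012. Their largest estimates were 0.44 ± 0.17 log2 units for Chpf, a chondroitin polymerising factor (SE; limma, adjusted p = 0.23), and 0.21 ± 0.060 for Fam20b, a xylose kinase of the linker region (limma, adjusted p = 0.085), and both passed on the 11 arrays (limma, adjusted p = 0.048 and 0.027). With the mean of its probe sets Fam20b was at 0.054 (limma, adjusted p = 0.17). None of 13 genes of hyaluronan and its binding partners passed either, with a median of 0.017. The hyaluronan receptor Cd44 was at 0.19 ± 0.073 (limma, adjusted p = 0.21) and the hyaluronidase Hyal2 at -0.12 ± 0.052 (limma, adjusted p = 0.29), the latter passing on the 11 arrays at -0.16 (limma, adjusted p = 0.024). Only 5 of these 13 exceeded the lowest value by more than 1 log2 unit in Control, and the link protein Hapln1 and the hyaluronan synthase Has2 did not (5.35 and 5.36).

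In the list of proteases that cut these proteoglycans or their relatives 14 genes were measured. Among them was Pcolce, which enhances a protease and is not one itself. Of the 14 genes 3 rose, Mmp2 by 0.59 ± 0.12 log2 units (SE; limma, adjusted p = 0.021), the membrane-type protease Mmp14 by 0.55 ± 0.13 (limma, adjusted p = 0.047) and Htra1, a serine protease, by 0.50 ± 0.10 (limma, adjusted p = 0.026). The median of the 14 was 0.12. With the mean of its probe sets Mmp2 was at 0.29 (limma, adjusted p = 0.022), and without probe sets of a suffixed ID Mmp14 was at 0.36 (limma, adjusted p = 0.080). The versican-cutting proteases Adamts1 and Adamts5 did not pass, at -0.48 ± 0.26 and 0.25 ± 0.061 (limma, adjusted p = 0.45 and 0.053). Of 14 ligands and receptors 2 rose, Bmp4 by 0.36 ± 0.072 (limma, adjusted p = 0.023) and Tlr2, an innate immune receptor that soluble biglycan can activate, by 0.20 ± 0.029 (limma, adjusted p = 0.0049). Tlr2 is close to the floor, at 5.42 ± 0.025 (SD, n = 6) for Control and 5.62 ± 0.068 (SD, n = 8) for A-CRF. The other biglycan receptor of this kind, Tlr4, was at 0.036 ± 0.031 (limma, adjusted p = 0.71).

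Of the 7 fibrillar collagens that these proteins bind, Col5a2 rose by 0.59 ± 0.12 log2 units (SE; limma, adjusted p = 0.026), which was 0.57 on the 11 arrays and did not pass there (limma, adjusted p = 0.051). The estimates of the other 6 were above 0 as well, among them 0.67 ± 0.22 for Col1a1 (limma, adjusted p = 0.14) and 0.19 ± 0.087 for Col3a1 (limma, adjusted p = 0.34), and the median was 0.31 against 0.028 for the 8 members. This difference between the lists was not tested. Adjusted p-values of Gpc4, Agrn, Htra1, Bmp4 and Col5a2 were 0.052 to 0.076 with a clock gene score as covariate, so that these calls ended there, and 1.09% of all genes were called higher in that fit. The estimates stayed close, at 0.29, 0.26, 0.48, 0.35 and 0.56 in that order. The call of Mmp14 ended in 3 of 12 alternatives (highest adjusted p = 0.080).

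**Figure D5:**
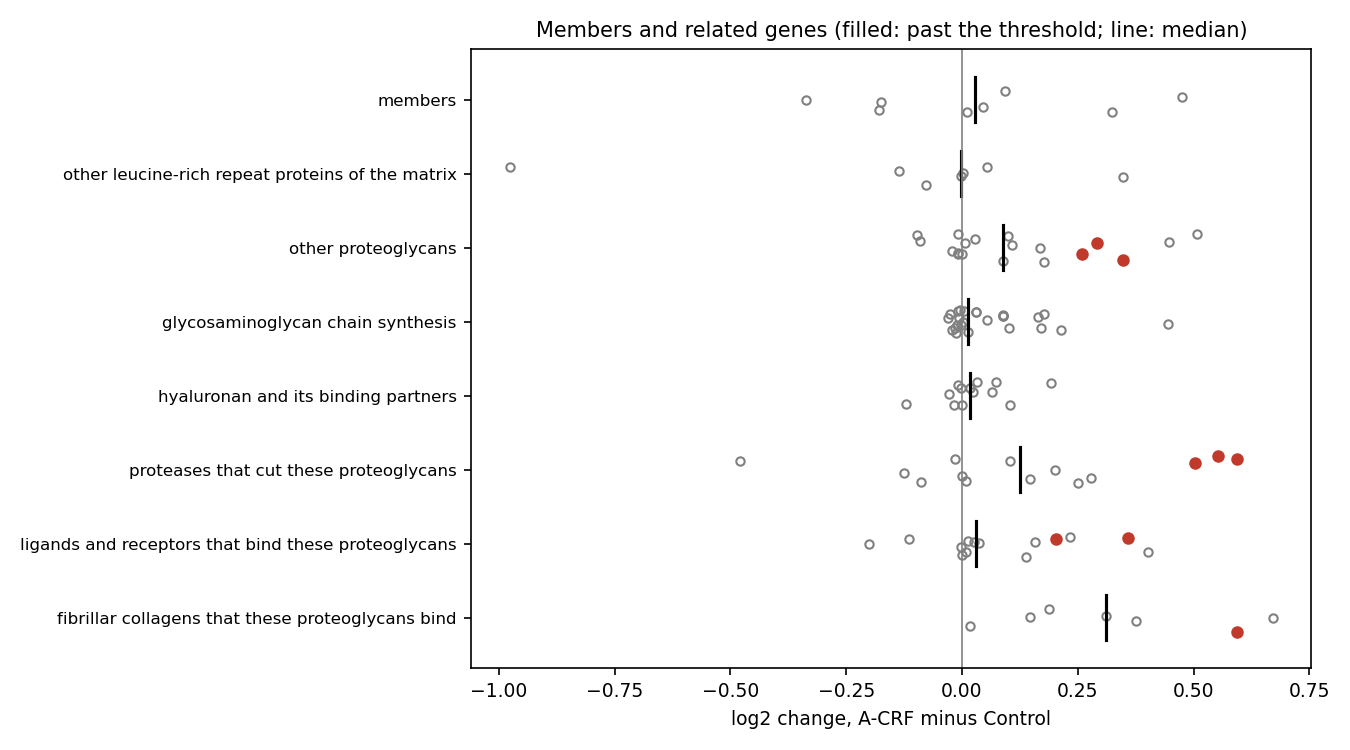
Log2 change, A-CRF minus Control (horizontal axis), of each measured gene in the 8 members and the 7 related lists (rows), with genes past an adjusted p of 0.05 filled and the median of each list as a line. Filled points, 9 in all and each above 0, occur in 4 of the lists, and the members have none.

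Markers of the cells that could make these proteins were read on the same arrays, with those of smooth muscle given above beside Prelp. Of 12 measured markers of adventitial fibroblasts, the main source of decorin and lumican in vessels, none passed, and their mean ranged from 7.61 to 7.88 in A-CRF and from 7.64 to 7.78 in Control. Of 12 macrophage markers 9 were called higher, where 1.93% of all genes were. The mean of the 12 was 7.32 to 7.73 in A-CRF, above 6.91 to 7.11 in Control, on all arrays. Endothelial markers (6 measured, 6.65 to 6.91 against 6.59 to 6.85) and white adipocyte markers (8 measured, 6.86 to 8.30 against 7.44 to 8.37) overlapped, and none passed. The part of macrophage RNA in the change of Bgn was not tested.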

How the data were processed

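Transcripts were measured in 14 samples of rat thoracic aorta, on 1 single-colour Affymetrix array each. The deposited log2 values are 1 probe set summary per array, and the submitters' processing notes name PLIER, without a version. The sources used here do not state background correction, normalization or any offset, and the log base was inferred from the range, 4.82 to 12.64. An offset would compress changes of dim genes.

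Of 31099 probe sets 57 manufacturer controls were left out. The platform annotation gave 1 symbol for 20826 probe sets. Groups were compared in limma 3.58.1 (R 4.3.3; lmFit, eBayes, 12 residual degrees of freedom), two-sided, with Benjamini-Hochberg adjustment over all probe sets and a threshold of 0.05. Intervals are 95% from the moderated fit. The fit was run on simulated data with independent noise for each probe set. Such data hold no RNA quality shared across an array, so they cannot tell how it affects the calls. For arrays the number of arrays limits precision.

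The members, lists and alternatives were chosen with earlier results of these data known. Named beside the members were up to 4 called genes of each list, or the 2 largest changes where none passed, and the genes most alike over arrays. Further genes (Col11a2, Adamts1, Adamts5, Tlr4, Col1a1, Col3a1, Optc, Hapln1, Has2, Acan, Col2a1, Comp) were picked after their values were seen. Fits without single arrays were added for the related genes afterwards. Other alternatives were normalizations, offset, filter, moderation, array weights, other probe set choices, covariates and arrays left out.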

Additional observations from a re-analysis of the deposited data

Results flagged for a closer look

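In 20 sets of values (8 members and 2 differences, each in A-CRF and in Control), 4 had 1 array whose gap to the nearest array exceeded Dixon's 95% bound for the range of its group, where chance gives about 1 in 20. Of these, 3 were A-CRF 4: Dcn at 11.07 (the next lowest A-CRF array at 11.44), Aspn at 6.93 (the next at 7.66) and the difference of Bgn and Dcn at 1.06 (the next at 0.17). The fourth was Prelp on Control 1, at 8.50 against 8.20 on the next Control array. A-CRF 4 and Control 1 are 2 of the 3 arrays with a large GAPDH 3' minus 5' difference.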

How the results depend on the processing

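No member was called in any of the 14 fits that left out 1 array (0 higher and 0 lower in each) or in 10 of the 12 other alternatives. With the GAPDH covariate, and without the 3 arrays of large GAPDH difference, 1 member was higher (Bgn) and 1 lower (Prelp). Bgn had adjusted p-values of 0.092 to 0.29 without single arrays and 0.029 to 0.28 in the other alternatives, and Prelp 0.11 to 0.37 and 0.0089 to 0.27. Ogn changed sign without A-CRF 1, 5, 6 or 8 or Control 5, with a range of -0.027 to 0.079 over the 14 fits, whereas the other 7 members kept their sign in every fit run. The difference of Bgn and Dcn ranged from 0.15 to 0.37 and that of Fmod and Lum from 0.21 to 0.54 without single arrays, never past the threshold. Among related genes 17 were higher with the GAPDH covariate and 4 with the clock score (2.81% and 1.09% of all genes), against 9 (1.93%), and 1 was lower with array weights, with the GAPDH covariate and without the 3 arrays, against 0. Without single arrays, a setting added for these genes after the data were seen, 3 (Control 5) to 12 (A-CRF 4) were higher and 0 to 1 lower. The cause was not tested. No paired analysis was possible because the sample titles of the groups share no numbers.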
